A study of Mus musculus with 38 samples.

Results

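The integrin and laminin subunit genes are the chains from which cells build their main matrix receptors and the sheet-forming proteins of basement membranes. They were taken from the expression table by symbol, as rows that begin with Itga or Itgb, or with Lama, Lamb or Lamc and a digit, leaving out the Itgb1bp genes and Itgbl1. The rule found 39 of 21705 genes. One of them, Itgb3bp, codes for a centromere protein rather than a receptor chain and was set aside (it ran from 73.2 to 109.6 units in VM-3055 cells with Dox and from 248 to 778 units in VIM tumours), which left 38 subunits: 18 integrin alpha chains, 9 integrin beta chains and 11 laminin chains.

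Expression was measured by paired-end mRNA sequencing in 38 mouse libraries of 10 groups. All tumours and lines carried a doxycycline (Dox) inducible MYC transgene, Tet-O-MYC, switched on in renal tubule cells by rtTA under the Ksp-cadherin promoter (genotype MYC+). MYC (M) tumours and MYC-2983 cells carried that transgene alone, VM tumours and VM-3055 cells also lacked Vhl (Vhl-/-; MYC +), and VIM tumours and VIM-3039 cells lacked Vhl and, in the germline, Ink4a/Arf (Vhl-/-; MYC +; Ink-/-/Arf-/-). Vhl was removed by a tamoxifen-inducible Cre, also driven by Ksp. Each line was grown from tumour tissue, bears the number of 1 animal and was sequenced in 4 libraries maintained on Dox and 4 after Dox withdrawal, collected 24 h after plating, Dox being the agent that turns the transgene on. By the numbers in their labels, the 3 MYC tumours came from 2 mice (replicates 2 and 3 both from mouse 2983, the number of the MYC-2983 line), VM tumour 2 from mouse 3055, and the other VM and VIM tumours from 1 mouse each, all maintained on Dox. The 5 normal kidneys were wild type and given vehicle, 2 labelled B6 and 3 labelled KT. The ages of the animals were not used here. Nothing in the labels says that the 4 libraries of a cell group came from separate cultures, so that p-values in the lines measure the spread between these libraries, which may be technical.

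An integrin is a pair of 1 alpha and 1 beta chain that spans the plasma membrane, binds matrix outside the cell and couples through talin and kindlin to actin inside. The alpha chain sets most of the choice of ligand: some pairs bind laminin, some collagen, and a group built around the alpha v and alpha 5 chains binds the RGD motif of fibronectin, vitronectin or osteopontin. Laminins are trimers of 1 alpha, 1 beta and 1 gamma chain, and in the kidney they form the tubular and glomerular basement membranes to which epithelial cells are anchored by integrins such as alpha 3 beta 1 and alpha 6 beta 1.

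Values are the authors' read estimates per gene after scaling each library to an upper quartile of 1000, called units here. From the size of 1 read in these units the libraries held an estimated 8.22 to 36.6 M reads, and 3 reads, used here as the limit of detection, came to between 1.16 and 5.65 units. The label checks held in the lines: Vhl was at 433 to 461 units in MYC-2983 cells with Dox against 10.3 to 14.9 in VM-3055 and 8.32 to 18.05 in the VIM-3039 line, and Cdkn2a, the Ink4a/Arf gene, at 24.9 to 34.7 in VIM-3039 against 3473 to 4189.8 in VM-3055 cells. The Myc row itself was lower with Dox than without in each line (mean 676 against 1831 in MYC-2983, 384 against 1364 in VM-3055, 381 against 1479 in VIM-3039), and these values do not separate the transgene from the mouse gene. The renal epithelial markers Cdh16 and Pax8 were above 1000 units on average in every group, while Epcam was as low as 5.99 in VM tumours and Krt18 as low as 7.25 in VM-3055 cells with Dox. Normal kidney replicate 5, labelled KT, stood apart: of 32 subunits above 10 units in every kidney, 25 were highest there, at a median of 1.56 times the mean of the other 4 kidneys. Counts that use the kidneys are therefore also given without it.

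The stretches just upstream of 4 receptor genes that fell with Dox in all 3 lines are shown first, beside that of Lama5, a laminin gene that passed the test in none of them. Of the 38 subunits, 24 matched an entry in RefSeq's promoter table (build GRCm38.p6), with 27 start sites among them. Itga3 also has a start site that is not printed, with 1 GC box in its upstream stretch (chr11:95069199-95069448). The 250 bases before the start are printed 5′ to 3′ on the strand of the gene, and capitals mark each GC box (GGGCGG, or CCGCCC where the other strand holds it).
Itgb1, chr8:128685404-128685653, plus strand: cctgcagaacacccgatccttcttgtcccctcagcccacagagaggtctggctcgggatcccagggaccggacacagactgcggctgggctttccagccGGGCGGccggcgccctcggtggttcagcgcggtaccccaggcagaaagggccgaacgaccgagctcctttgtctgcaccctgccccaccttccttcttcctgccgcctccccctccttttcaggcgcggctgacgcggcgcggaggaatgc
Itga3, chr11:95076715-95076964, minus strand: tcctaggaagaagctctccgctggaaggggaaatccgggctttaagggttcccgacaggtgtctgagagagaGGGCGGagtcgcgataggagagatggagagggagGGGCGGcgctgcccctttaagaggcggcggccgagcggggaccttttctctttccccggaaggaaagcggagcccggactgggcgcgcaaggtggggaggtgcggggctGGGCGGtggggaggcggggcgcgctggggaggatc
Itga5, chr15:103366792-103367041, minus strand: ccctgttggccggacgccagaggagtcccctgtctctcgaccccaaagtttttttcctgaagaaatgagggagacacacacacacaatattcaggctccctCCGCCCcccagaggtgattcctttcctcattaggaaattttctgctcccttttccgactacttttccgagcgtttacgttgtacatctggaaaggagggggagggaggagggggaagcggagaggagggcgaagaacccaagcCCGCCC
Itgav, chr2:83724147-83724396, plus strand: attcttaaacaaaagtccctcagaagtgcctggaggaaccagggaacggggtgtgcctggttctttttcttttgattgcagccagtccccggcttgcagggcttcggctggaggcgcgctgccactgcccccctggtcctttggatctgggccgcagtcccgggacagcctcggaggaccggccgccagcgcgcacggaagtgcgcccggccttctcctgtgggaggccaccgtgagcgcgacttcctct
Lama5, chr2:180225860-180226109, minus strand: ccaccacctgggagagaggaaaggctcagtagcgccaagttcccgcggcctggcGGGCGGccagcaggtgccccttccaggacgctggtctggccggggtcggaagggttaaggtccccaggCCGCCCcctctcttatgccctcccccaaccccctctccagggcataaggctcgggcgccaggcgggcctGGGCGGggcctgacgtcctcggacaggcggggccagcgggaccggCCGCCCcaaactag
The GC box stood in 9 of the 27 upstream stretches, against 32.7% of all 32851 stretches of this length in the table. CACGTG, the E-box motif that MYC and MAX bind, was in 0 of 27, against 6.02% of all, and TATAAA was in 0 of 27, against 12.4%. TGANTCA, the AP-1 motif, was in 1 (Itgax), against 6.75%, and ACGTG, the core of the HIF motif, which every CACGTG also holds, was in 1 (Itga9), against 16.6%. Both strands were searched for every motif, and these counts describe the letters in these windows only. Among the 5 sequences shown, Lama5 has 4 GC boxes and Itgav has 0.

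All 3 lines had far more integrin than laminin transcript. The 27 integrin genes summed to 43769.5 ± 2691 units (SD, n = 4) in MYC-2983 cells with Dox and 105234 ± 1078 without, to 25141 ± 721 and 66163 ± 3920.0 in VM-3055 cells, and to 32477 ± 1979 and 90264 ± 959 in VIM-3039 cells. The 11 laminin genes summed to 14589 ± 438 and 23389.5 ± 970.0, to 12834 ± 967 and 21069 ± 781, and to 9060.4 ± 214 and 15632 ± 738 in the same order. In tissue the integrin sum lay lower, at 22139.8 ± 729.5 in MYC, 16795 ± 2546 in VM and 14682 ± 2959.8 in VIM tumours (n = 3 each) and 20106 ± 3247 in normal kidney (n = 5). The laminin sum was 18182 ± 3114, 13919 ± 3654 and 10321 ± 3981 in those tumours, against 7532 ± 1565 in kidney.

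**Figure D1:**
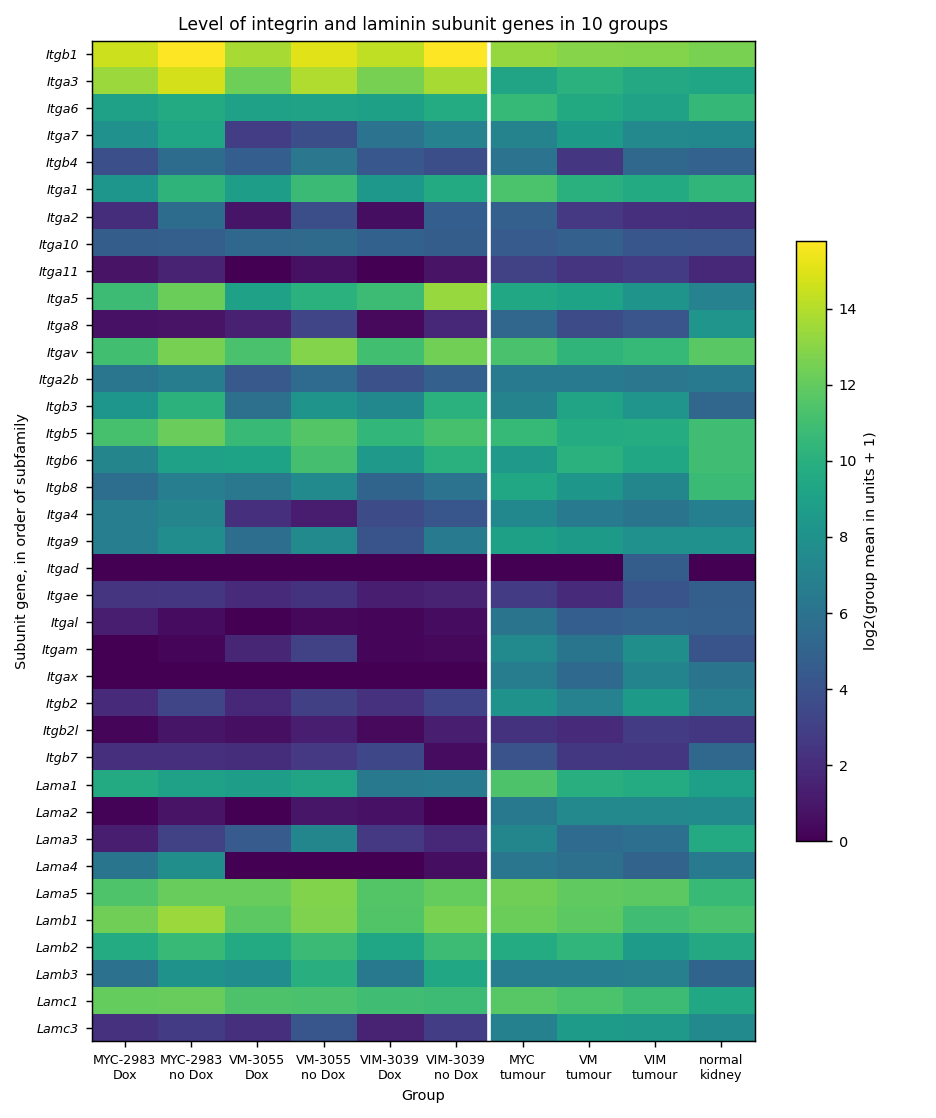
Heat map of log2(mean + 1) of subunits (rows, by subfamily) in the 10 groups (columns, cells left of the white line and tissue right of it), in units scaled to an upper quartile of 1000. Itgb1 and Itga3 are bright in all 6 cell columns, Itgb2 and Itgam are dark in cells and brighter in tissue, and Lama4 is above 50 units in cells of the MYC-2983 line only.

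Per kilobase of annotated exon, which allows genes to be compared, Itgb1, the beta 1 chain that pairs with most alpha chains, was the leading beta chain in all 10 groups. Its level ran from 1544 ± 117 units per kb in normal kidney to 13832 ± 113 in MYC-2983 cells without Dox (SD). Itga3, the alpha 3 chain of a laminin receptor, led the alpha chains in all 6 cell groups, at 1889 ± 92.8, 891 ± 64.4 and 1054 ± 38.2 units per kb with Dox in MYC-2983, VM-3055 and the VIM-3039 line. In VIM-3039 cells without Dox it was level with the alpha 5 chain, 2388 ± 67.4 against 2355 ± 114 units per kb. By the longest annotated transcript Itga3 was ahead there, at 2805 against 2355. The alpha chains of the tissues were closer together: Itga1, a collagen receptor chain, led in MYC tumours (314 ± 99.2), Itga3 in VM tumours (193 ± 66.4), and Itgav in VIM tumours (142 ± 76.6) and normal kidney (314 ± 56.8), and in the VIM tumours Itgav and Itga3 (130.1 ± 66.8) did not differ beyond their spread, nor did the first 2 alpha chains in MYC and VM tumours. Among the laminin chains the order depended on the length used. Over all annotated exons Lamb1 led in 8 groups and Lama5 in VM-3055 cells with Dox (386 ± 52.9 units per kb against 363 ± 16.3 for Lamb1) and VIM tumours (314 ± 94.8 against 199.5 ± 115), in neither beyond the spread, while over the longest annotated transcript Lamb1 led in all 10. In normal kidney Lamb1 stood at 245 ± 60.3 units per kb of annotated exon, Lama5 at 137 ± 36.7 and Lamc1 at 81.5 ± 33.5. In MYC tumours the 3 chains lay at 495 ± 76.1, 470.0 ± 89.4 and 404 ± 94.7, and by the longest transcript at 849, 471 and 438.

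The first comparison asked what changed in each line with Dox, the inducer of the MYC transgene. Receptor chains fell in all 3 lines, led in level by Itgb1 and Itga3. A gene passed where limma gave an adjusted p under 0.05 over all genes tested and the change was over 2-fold. In MYC-2983 cells, 35 of the 38 subunits were tested, 17 passed as lower with Dox and 0 as higher (15% of 15104 genes passed as lower and 4.49% as higher). In VM-3055 cells 32 were tested, 20 passed as lower and 0 as higher (18.9% and 5.92% of 14319 genes). In VIM-3039 cells 31 were tested, 15 passed as lower and 1 as higher (16.6% and 7.67% of 13998 genes). Those not tested, with values above 0 in fewer than 4 libraries, were Itgad and Itgax in all 3 lines, Itgam in MYC-2983 and VIM-3039 cells, and Itga11, Itgal, Lama2 and Lama4 in VM-3055 and the VIM-3039 line. The median log2 change of the subunits tested was -0.97, -1.16 and -0.94 in the 3 lines, beside -0.13, -0.26 and -0.15 for all genes tested. Another scaling (the trimmed mean of M values, TMM) moved the median of all genes to -0.01, -0.04 and -0.01, and with it 15, 16 and 15 subunits passed, of which 0, 1 and 2 were higher. With quantile normalization 15, 15 and 16 passed, of which 1, 1 and 3 were higher.

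Of the 38, 9 subunits passed as lower in all 3 lines: Itgb1, Itga1, Itga2, Itga3, Itga5, Itgav, Itgb3, Itgb6 and Lamb3. Another 11 passed as lower in 2 lines, 3 in 1 line and 15 in none. The matching overlap between lines over all genes was not counted. Whether the 9 shared subunits are more than that overlap would give was therefore not tested. In the mouse build mm9, Itgb1 lies at chr8:131209554-131257100, Itga3 at chr11:94905788-94938115, Itgav at chr2:83564554-83647073, Itga5 at chr15:103174720-103197194, Itgb3 at chr11:104469370-104531790 and Lamb3 at chr1:195128151-195170072, each counted over its exons. Itga1 overlaps Pelo on the same strand, so that reads of these genes may not be told apart.

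**Figure D2:**
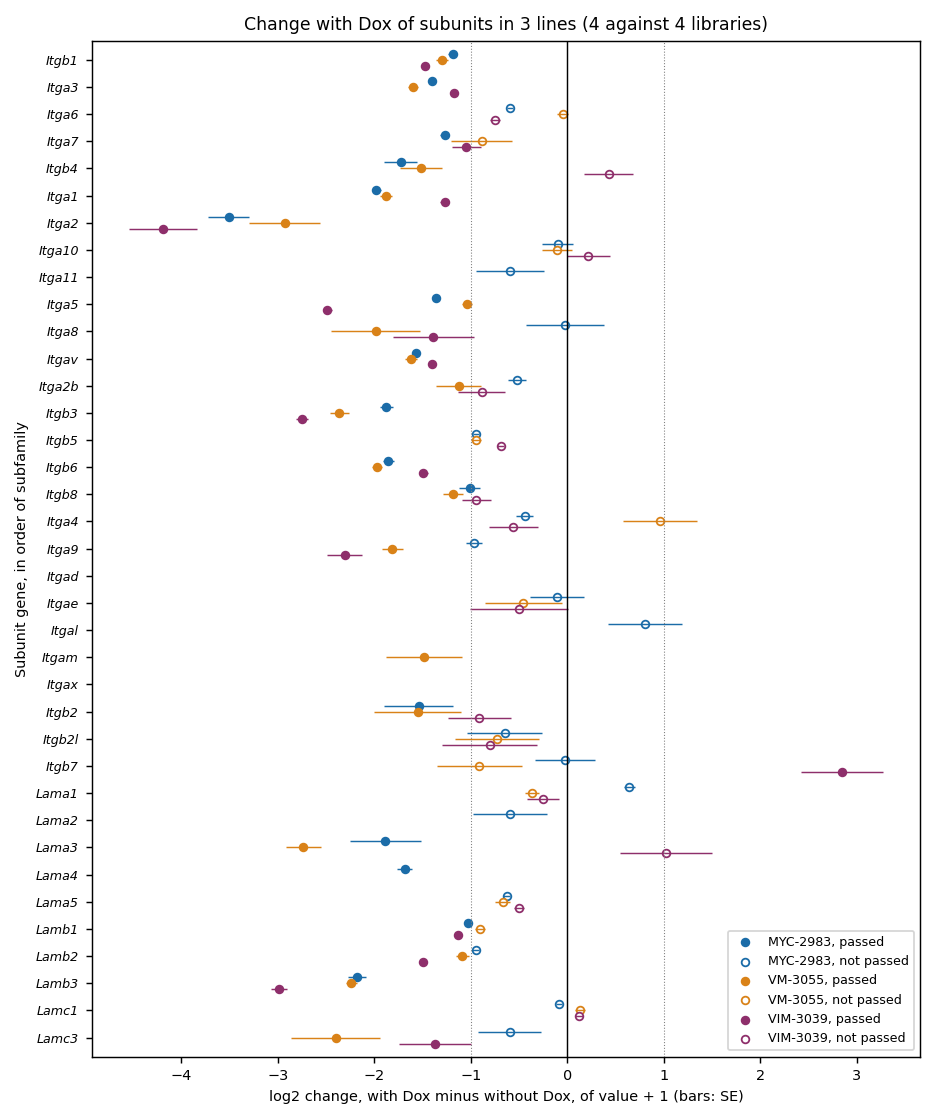
Log2 change with Dox (x axis, with Dox minus without, of value + 1; bars are SE) of subunits tested in the MYC-2983, VM-3055 and VIM-3039 lines, 4 against 4 libraries. Filled points passed: those left of the dotted line at -1 were lower with Dox, and the single one to the right is Itgb7 in VIM-3039 cells at 2.84.

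Itgb1 codes for the common beta 1 chain. Its 4 values in MYC-2983 cells with Dox were 25941, 24146, 22527 and 26535 units, against 56716, 56205, 55932 and 56934 without. In VM-3055 cells they were 12739.9, 14060.4, 13943 and 14027 against 33700.2, 37960.4, 31535 and 32239, and in VIM-3039 cells 17843, 20356, 20976 and 18967 against 55421, 54478, 54472 and 52852. Every library with Dox lay under every library without it in its line, and Itgb1 fell by 2.28, 2.47 and 2.78 times (log2 change -1.19 ± 0.04, -1.30 ± 0.06 and -1.48 ± 0.04, SE; adjusted p = 1.91e-14, 2.02e-12 and 8.36e-18). With quantile normalization the change in MYC-2983 cells was -0.67 and no longer over 2-fold.

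Of the laminin receptor chains, Itga3, Itga6, Itga7 and Itgb4, only Itga3 passed in all 3 lines. Itga3 stood at 11002, 10586, 10164 and 11393 units with Dox against 28424, 27833, 28366 and 29158 without in MYC-2983 cells. It stood at 5238, 5538, 4791 and 4783 against 15101, 15303, 15333 and 15711 in VM-3055 cells. In VIM-3039 cells it stood at 5819, 6044, 6314 and 5893 against 13473, 13405, 13450.0 and 14210.0. The groups were apart in each line, and the falls were 2.64-, 3.02- and 2.27-fold (adjusted p = 8.11e-17, 1.25e-14 and 3.01e-18). Itga6, the alpha chain that joins beta 1 or beta 4 in binding laminin, behaved otherwise. It was at 538, 498, 542 and 525 against 814, 782, 793 and 788 units in MYC-2983 cells, at 539, 509.8, 520.4 and 498 against 517, 574, 505 and 546 in VM-3055 cells and at 447, 521, 520.3 and 506 against 836, 824, 850.0 and 846 in VIM-3039 cells. Its log2 change was -0.59, -0.05 and -0.75, under 2-fold throughout, and in VM-3055 cells the groups overlapped.

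Itgb4, the beta 4 chain of the hemidesmosome, was a low-level gene in all lines. It was at 12.6, 16.3, 13.5 and 10.5 units with Dox and 42.7, 42.1, 42.2 and 57.1 without in MYC-2983 cells, and at 37.6, 25.5, 18.7 and 20.8 and 65.2, 87.6, 54.2 and 89.6 in VM-3055 cells. Both lines had separate groups, with falls of 3.31- and 2.86-fold (adjusted p = 3.83e-08 and 4.81e-06), although the VM-3055 change was -0.80 and did not pass with quantile normalization. In VIM-3039 cells Itgb4 was at 23.6, 15.9, 23.6 and 11.3 with Dox and 15.2, 14.5, 11.2 and 11.6 without, the groups overlapped and the change did not pass (0.43, adjusted p = 0.139). Itga7, a laminin receptor chain best known from muscle, fell 2.42-fold in MYC-2983 and 2.07-fold in VIM-3039 cells, the latter under 2-fold with a pseudocount of 10, TMM or quantile normalization and without VIM-3039 Dox 2 or 4 or no Dox 4.

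The collagen receptor chains Itga1 and Itga2 fell in all 3 lines, and Itga10 and Itga11 passed in none. Itga1 stood at 310.3, 317, 283 and 330.2 units with Dox against 1167, 1270.3, 1182 and 1279.7 without in MYC-2983 cells, and at 451, 485, 481 and 425 against 1624, 1874, 1561 and 1747 in VM-3055 cells. In VIM-3039 cells it stood at 351, 323, 342 and 332 against 810.4, 822, 836 and 791. Its groups were apart in every line, with falls of 3.94-, 3.69- and 2.41-fold (adjusted p = 6.22e-17, 1.56e-14 and 3.59e-16). Itga2 was much lower than Itga1 in units. It was at 5.03, 2.17, 3.25 and 2.62 against 44.6, 41.5, 50.9 and 48.4 in MYC-2983 cells, an 11.4-fold fall. In VM-3055 cells it was at 0.739, 0, 1.698 and 0.877 with Dox, at or under the 3-read limit in each library, against 15.9, 12.02, 6.98 and 15.95, at least 5.11-fold lower. In VIM-3039 cells it was at 0.694, 1.39, 0 and 0 with Dox, again at or under the limit, against 27.5, 28.99, 28.6 and 16.6, at least 11.9-fold lower.

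**Figure D3:**
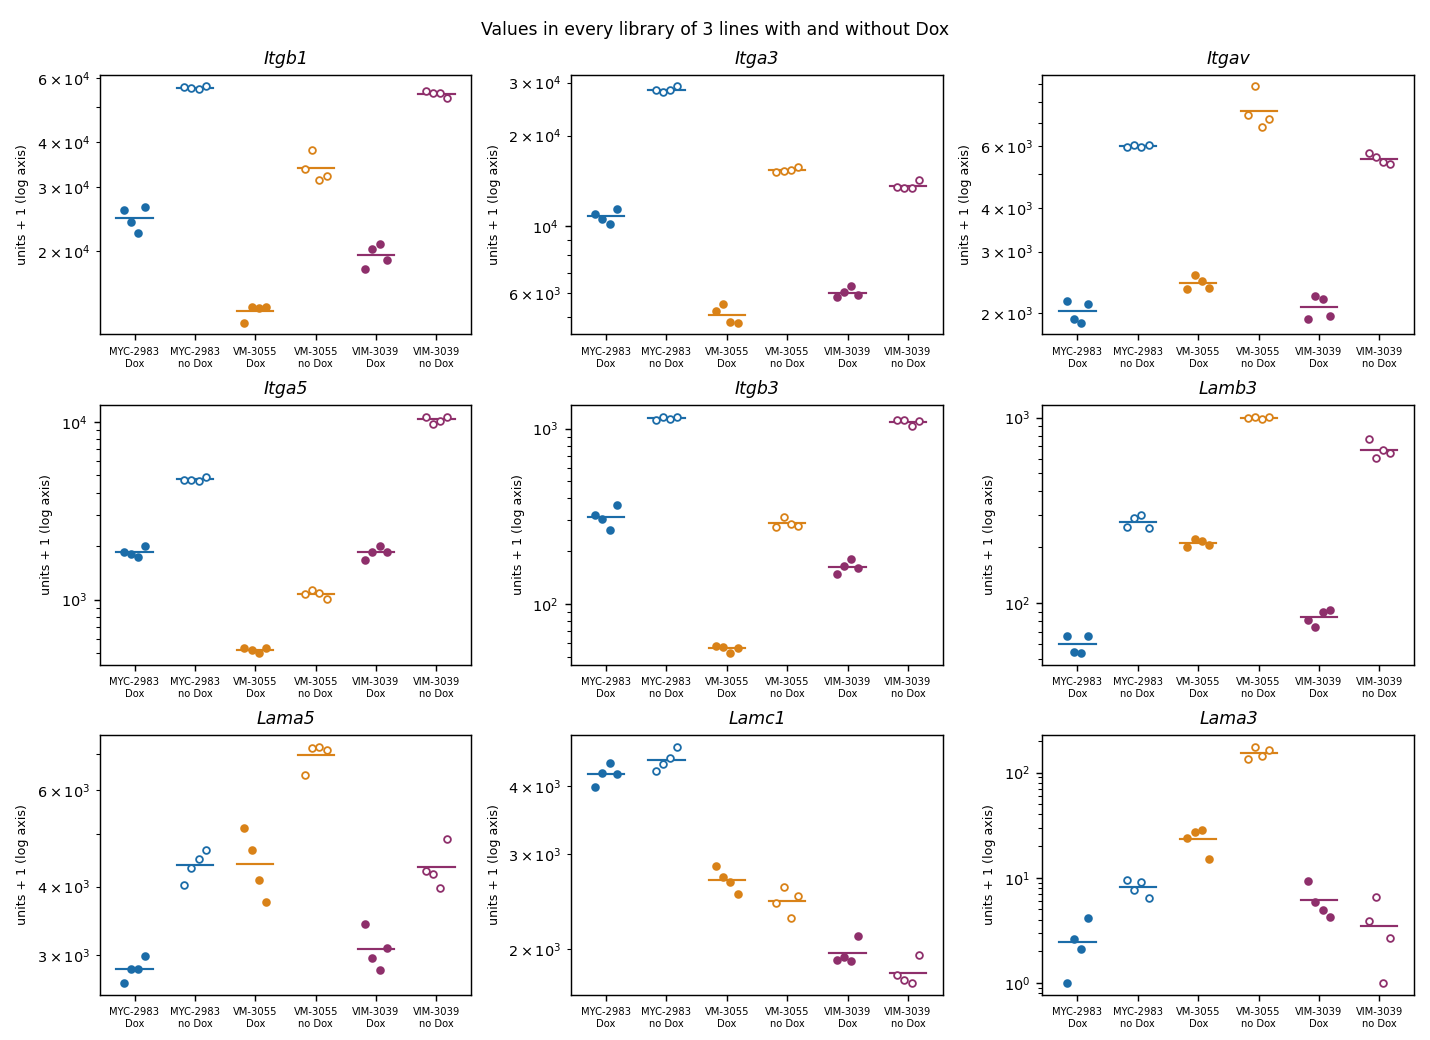
Every library of the 3 lines for 9 subunits, in units + 1 on log axes (filled circles with Dox, open circles without, horizontal lines the group means, n = 4). For Itgb1, Itga3, Itgav, Itga5, Itgb3 and Lamb3 the filled circles lie below the open ones in each line, for Lamc1 the groups overlap in each line, and Lama3 separates in MYC-2983 and VM-3055 but not in VIM-3039 cells.

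Most RGD receptor chains fell with Dox. Of 8 tested, 5 passed as lower in MYC-2983, 7 in VM-3055 and 5 in the VIM-3039 line, and Itgb5 did not pass in any (-0.95, -0.94 and -0.69, close to 2-fold in the first 2). The counts in VM-3055 and VIM-3039 cells include Itga8, a gene near or under the limit of detection there. Its means were 1.76 units with Dox against 8.75 without in VM-3055 cells, and 0.337 against 2.42 in VIM-3039 cells. Itgav, the alpha v chain shared by the beta 3, beta 5, beta 6 and beta 8 receptors, was at 2171, 1931, 1882 and 2124 units with Dox against 5963, 6056, 5944 and 6026 without in MYC-2983 cells. It was at 2351, 2569, 2468 and 2362 against 7358, 8876, 6784 and 7142 in VM-3055 cells and at 1925, 2246, 2201 and 1967 against 5745, 5572, 5413 and 5318 in VIM-3039 cells. The groups were apart and the falls alike in size, 2.96-, 3.08- and 2.65-fold (adjusted p = 6.96e-17, 2.26e-13 and 1.5e-17).

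Itga5 forms the classical fibronectin receptor with beta 1, and the size of its fall differed by line. In MYC-2983 cells it was at 1839.8, 1803, 1745 and 1992 units with Dox against 4736, 4692, 4638 and 4892 without. In VM-3055 cells it was at 531, 522, 500.0 and 535 against 1074, 1135, 1094 and 1012. In VIM-3039 cells it was at 1658, 1855, 2003 and 1844 against 10704, 9674, 10165 and 10714, so that the libraries without Dox of this line were the highest of the 6 cell groups. The falls were 2.57-, 2.06- and 5.61-fold (log2 change -1.36 ± 0.03, -1.04 ± 0.05 and -2.49 ± 0.05, SE; adjusted p = 1.3e-16, 2.93e-12 and 5.61e-21). The VM-3055 fall passed by little and was under 2-fold with TMM and with quantile normalization.

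Itgb3, the partner of alpha v in the vitronectin receptor, was at 320.3, 305, 263 and 365 units with Dox against 1121, 1159, 1139 and 1171 without in MYC-2983 cells. It was at 56.9, 56.2, 51.8 and 55.3 against 275, 314, 284 and 278 in VM-3055 and at 147, 163, 179.8 and 159 against 1121, 1119, 1028 and 1105 in the VIM-3039 line. No library with Dox reached one without it, and the falls were 3.68-, 5.15- and 6.71-fold (adjusted p = 1.29e-14, 2.42e-13 and 8.05e-20). Itgb6, an epithelial chain whose receptor activates latent TGF-beta, fell 3.63-, 3.92- and 2.81-fold, from means of 524, 2192 and 1040.0 units to 144, 558 and 369. Itgb8, whose receptor also binds latent TGF-beta, passed in MYC-2983 (-1.01) and VM-3055 (-1.19) but not in VIM-3039 cells (-0.94), and both calls went under 2-fold with TMM and with quantile normalization, the first also with a pseudocount of 10 and without MYC-2983 Dox 2 or no Dox 3.

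Alpha 4 and alpha 9, which bind fibronectin splice forms and tenascin, parted. Itga9 fell 3.52-fold in VM-3055 and 4.95-fold in VIM-3039 cells and missed 2-fold in MYC-2983 cells (-0.97). Itga4 passed in no line (-0.44, 0.96 and -0.56). The 8 leukocyte chains were near or under the limit of detection in the lines, with no group mean above 9.91 units. At these levels Itgb2 passed as lower in MYC-2983 and VM-3055 and Itgam in VM-3055 cells, and Itgb7 in VIM-3039 cells was the one subunit that passed as higher, at 12.5, 15.3, 7.87 and 4.04 units with Dox against 0, 0, 1.02 and 0.83 without, at least 3.38-fold higher than the 3-read limit that the libraries without Dox stayed under. With a pseudocount of 10 these calls of Itgb2, Itgam and Itgb7 were lost (0.89 for Itgb7), those of Itgb2 and Itgam in VM-3055 cells also with quantile normalization, and that of Itgb2 there with no filter.

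Laminin genes divided by chain. Of the 3 beta chains, Lamb3 fell in every line. It was at 65.97, 53.8, 53.1 and 65.5 units with Dox against 255, 288, 299 and 253 without in MYC-2983, at 199.5, 222, 216 and 204 against 998.2, 1012, 976 and 1000.4 in VM-3055 and at 79.8, 73.5, 89.2 and 91.3 against 761, 605, 670.4 and 639.6 in the VIM-3039 line. The groups were apart, and the falls were 4.54-, 4.72- and 7.93-fold (adjusted p = 1.68e-13, 8.97e-16 and 4.44e-18). Lama3 is among its partners in the laminin of epithelial anchoring complexes.

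Lama3 was low in 2 of the lines. It was at 22.9, 26.4, 27.2 and 14.04 units with Dox against 132, 175, 142 and 163 without in VM-3055 cells, a 6.67-fold fall (adjusted p = 2.33e-10). In MYC-2983 cells it was at 0, 1.63, 1.08 and 3.15 against 8.53, 6.58, 8.102 and 5.44, a fall that passed (-1.89) but not with a pseudocount of 10. In VIM-3039 cells it was at 8.33, 4.85, 3.94 and 3.23 against 2.85, 5.57, 0 and 1.66, with overlapping groups and a change of the other sign that did not pass (1.02, adjusted p = 0.0572).

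Lamb1 and Lamb2, the beta chains of most basement membrane laminins, lay near the 2-fold limit. Lamb1 was at 5325, 5172, 4958 and 5723 units with Dox against 10425, 10612, 10934 and 11323 without in MYC-2983, at 3715, 3751, 3517 and 3412 against 6752, 7305, 6239.5 and 6743 in VM-3055 and at 2685, 2856, 2937 and 2874 against 6385, 6077, 5964 and 6405 in the VIM-3039 line. The groups were apart in each line, with log2 changes of -1.03, -0.91 and -1.13, of which the first and the last passed, neither of them with TMM. Lamb2 was at 779, 845, 861 and 862 against 1639.8, 1558, 1641 and 1634, at 917, 822, 713 and 761 against 1597, 1679, 1764 and 1772 and at 678, 651, 657 and 617 against 1842, 1848, 1751 and 1925 in the same order. Its changes were -0.95, -1.09 and -1.50, and it passed in VM-3055 (not with TMM) and VIM-3039 cells.

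Lamc1 and Lama5 stayed under 2-fold in every line. Lamc1, the gamma chain present in most laminins, was at 3992, 4231, 4420.4 and 4213 units with Dox against 4269, 4398, 4517 and 4734 without in MYC-2983, at 2850.1, 2714, 2656 and 2525 against 2435, 2598, 2277 and 2508 in VM-3055 and at 1903, 1929, 1899 and 2109 against 1784, 1750.3, 1728 and 1944 in the VIM-3039 line. The groups overlapped in all 3 lines, and the changes were -0.09 ± 0.03, 0.13 ± 0.05 and 0.12 ± 0.04 (SE). Lama5, the alpha chain of most adult epithelial basement membranes, was at 2661, 2821, 2826 and 2978 against 4018, 4316, 4485 and 4674, at 5109.7, 4659, 4109 and 3739 against 6410.1, 7173, 7215 and 7104 and at 3410.2, 2954, 2810.4 and 3091 against 4274, 4219, 3976 and 4879. Its groups did not overlap, but the changes of -0.63, -0.67 and -0.50 were under 2-fold.

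Lama1, the alpha chain of the embryonic epithelial laminin, had a higher level with Dox in MYC-2983 cells, 770.4, 875, 819.7 and 792 units against 459, 531, 507 and 595, a difference under 2-fold (0.64, adjusted p = 1.55e-08). It was at 512, 431, 493 and 404 against 605, 613, 552 and 595 in VM-3055 and at 92.3, 51.3, 85.96 and 95.3 against 88.3, 81.4, 98.98 and 110.3 in the VIM-3039 line, and passed in neither (-0.37 and -0.25). Lama4, the alpha chain of vessel and mesenchymal laminins, was at 70.999, 67.4, 70.4 and 64.5 against 217, 211, 234 and 227 in MYC-2983 cells and fell 3.22-fold (adjusted p = 3.83e-13). It was at 0 in all 8 VM-3055 libraries and in 7 of 8 VIM-3039 libraries. Lamc3 passed as lower from means of 17.4 and 6.27 units in VM-3055 and the VIM-3039 line, the latter lost with a pseudocount of 10 or quantile normalization, and without VM-3055 Dox 3 the former was -1.81 rather than -2.40. Lama2 passed in no line.

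Partner genes of the subunits were counted next, beside the 15%, 18.9% and 16.6% of all genes that passed as lower. Of 13 basement membrane partners of laminin, 9 of 13 tested passed as lower in MYC-2983, 8 of 12 in VM-3055 and 9 of 13 in the VIM-3039 line, and 0 as higher. They included the collagen IV chain Col4a4 (-2.68, -4.22 and -5.27) and the heparan sulphate proteoglycan agrin, Agrn (-1.10, -1.41 and -1.12). Of 20 integrin adaptor and focal adhesion genes, 9, 7 and 10 of 19 tested passed as lower and 0, 1 and 1 as higher. Vinculin, Vcl, which links talin to actin, changed by -1.50, -1.13 and -1.98, and the one gene that passed as higher, Fermt3, the kindlin of blood cells, was at 8.24 against 3.24 units in VM-3055 and 9.51 against 2.37 in the VIM-3039 line. Of 5 integrin ligands other than laminin, 4 were tested, and 4, 4 and 3 passed as lower, among them fibronectin, Fn1 (-1.45, -2.27 and -1.64), and tenascin C, Tnc (-1.45, -1.97 and -2.07). Of 4 hemidesmosome genes, 1 of 4, 2 of 3 and 1 of 3 passed as lower, the tetraspanin Cd151 in each line. The median changes of these 4 lists ran from -2.17 to -0.76. The markers of mural cells and fibroblasts moved with Dox as well: their sum was 17021 to 19874 units with Dox and 69204 to 74014 without in MYC-2983 cells, mostly from Acta2 (mean 17021 and 67919.6), 967 to 1186 and 1772 to 2028 in VM-3055 and 1111 to 1297 and 6079 to 6698 in VIM-3039 cells. Of the 10 genes in this list, Dcn and Lum stayed at or under 24.3 units on average in the lines, so that the sums came mainly from the others. The part of this list in the subunits' changes was not tested.

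Whether the lines differed in their change with Dox was tested as an interaction in limma. Between VM-3055 and MYC-2983 cells 7 of 36 subunits tested passed (8.78% of all genes), 2 as higher (3.26%) and 5 as lower (5.53%), and with quantile normalization 3 and 1. That count of 7 was 4 without VM-3055 Dox replicate 4 and 4 without VM-3055 no Dox replicate 2. Between VIM-3039 and MYC-2983 cells 8 of 35 passed (9.06%), 5 as higher (4.54%) and 3 as lower (4.52%). Between VIM-3039 and VM-3055 cells 7 of 35 passed (6.05%), 5 as higher (3.7%) and 2 as lower (2.35%). These counts hold several genes at the limit of detection, and with a filter of at least 10 units on average they were 3, 4 and 3. Itga5 fell more in VIM-3039 than in MYC-2983 cells, with a log2 difference of -1.13 ± 0.07 (SE, adjusted p = 7.9e-12), and more than in VM-3055 cells, with one of -1.44 ± 0.07 (adjusted p = 8.14e-13). Itgb4 and Lama3 went the other way in VIM-3039 cells, with differences from MYC-2983 of 2.15 ± 0.32 and 2.91 ± 0.65 and from VM-3055 of 1.94 ± 0.35 and 3.76 ± 0.55 (adjusted p = 7.15e-06, 0.000731, 0.000202 and 1.63e-05). Itga9 also fell more in VIM-3039 than in MYC-2983 cells (-1.34, adjusted p = 4.97e-06). With a pseudocount of 10 the Itga9 and Lama3 differences from MYC-2983 cells and that of Itga4 below did not pass, nor did Itga9 with quantile normalization. The Lama1 difference between VM-3055 and MYC-2983 cells (-1.01) went under 2-fold with a pseudocount of 10 and with quantile normalization, and also, reaching no further than -0.95, in 7 of 16 fits that left out 1 library (MYC-2983 Dox 2, MYC-2983 no Dox 1 or 3, VM-3055 Dox 2 or 4, VM-3055 no Dox 1 or 2). Itga4 also differed between these lines (1.40), at means of 3.64 and 1.28 units in VM-3055, near the limit of detection, against 105 and 143 in MYC-2983 cells. For Itgb1, Itgav and Itga3 the differences between lines ran from -0.29 to 0.42 and did not pass. Lama4 passed in both comparisons with MYC-2983 cells (1.69 and 1.30) while at or under the 3-read limit in every library of the other line, so that the value restates the fall in MYC-2983 cells, and the second was lost with a pseudocount of 0.1 (0.62) and with quantile normalization.

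The second comparison set the lines beside each other with Dox. Each genotype is represented by 1 line, so that the difference between lines and the difference between genotypes cannot be told apart. Between VM-3055 and MYC-2983 cells 4 subunits were higher and 10 lower of 34 tested (6.54% and 18.1% of all genes), and with quantile normalization 7 and 5. Between VIM-3039 and MYC-2983 cells 3 were higher and 10 lower of 34 (5.66% and 18.3%), and with quantile normalization 7 and 7. Between VIM-3039 and VM-3055 cells 5 were higher and 6 lower of 32 (9.69% and 9.45%).

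**Figure D4:**
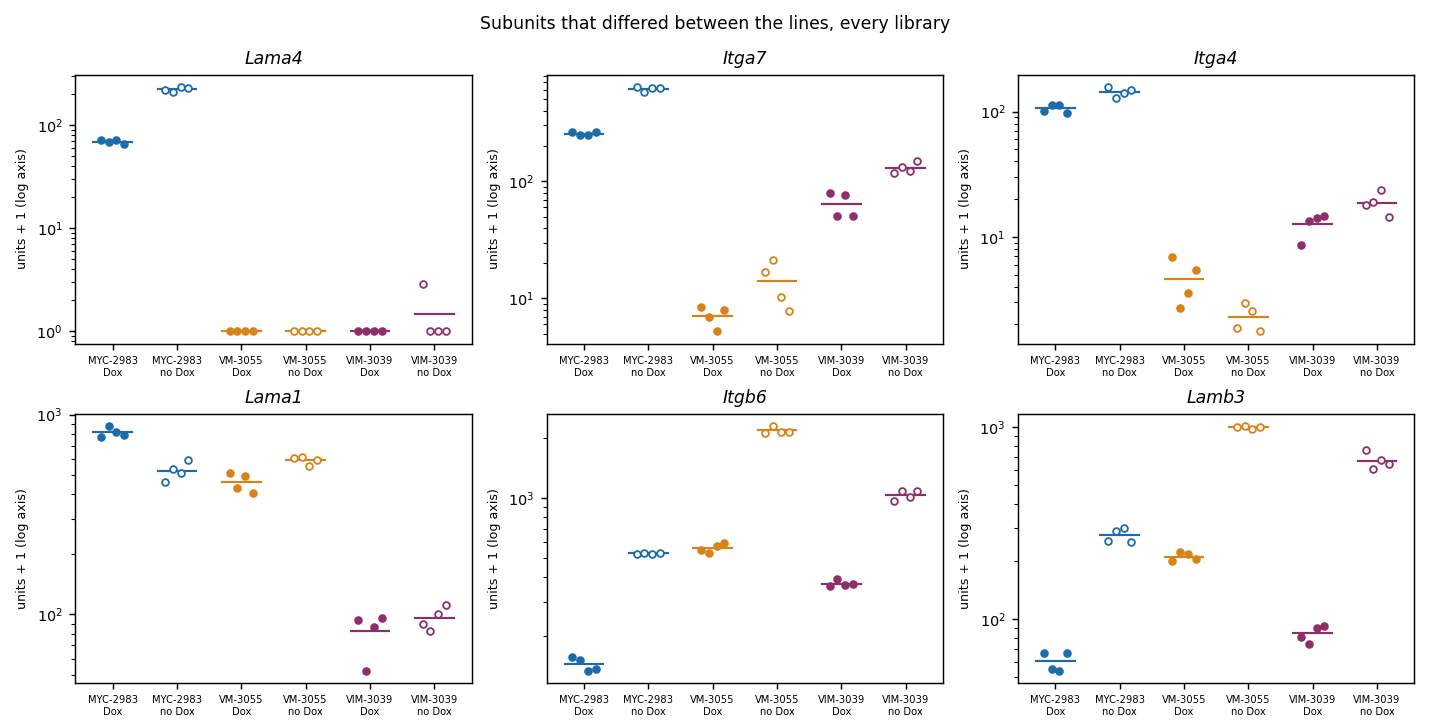
Every library of the 3 lines for 6 subunits that differed between lines, in units + 1 on log axes (filled with Dox, open without, horizontal lines the means, n = 4). Lama4 sits at the bottom of the axis in VM-3055 and the VIM-3039 line, Itga7 and Itga4 are highest in MYC-2983 cells, Lama1 is lowest in VIM-3039 cells, and Itgb6 is highest in VM-3055 cells.

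Lama4 was the sharpest mark of the MYC-2983 line. Against its 70.999, 67.4, 70.4 and 64.5 units with Dox, the 4 VM-3055 and the 4 VIM-3039 libraries with Dox were all at 0, at least 27.5- and 31.95-fold lower by the 3-read limit per library. Itga7 was at 265, 246, 247 and 263 units in MYC-2983, 7.39, 5.96, 4.24 and 7.02 in VM-3055 and 79.1, 49.9, 74.8 and 49.3 in the VIM-3039 line with Dox. The 3 ranges were apart, 36.4-fold lower in VM-3055 (adjusted p = 2.78e-12) and 4.08-fold lower in VIM-3039 (adjusted p = 7.38e-09) than in MYC-2983 cells. Itga4 was at 100.4, 111, 112 and 95.9, 5.91, 1.702, 2.55 and 4.39 and 7.63, 12.5, 13.1 and 13.7 in the same order, 24.3- and 8.48-fold lower than in MYC-2983 cells, again with no overlap.

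Lama1 was lowest in VIM-3039 cells. With Dox it was 10.2-fold lower in VIM-3039 than in MYC-2983 cells (adjusted p = 5.13e-11) and 5.74-fold lower than in VM-3055 cells (adjusted p = 3.4e-10), from the library values given above. Itgb6 was 3.86-fold higher in VM-3055 than in MYC-2983 cells (545, 525, 569.6 and 593 against 157, 151, 133 and 135 units, and 357, 389, 364 and 366 in VIM-3039 cells). It also passed as higher in VIM-3039 than in MYC-2983 cells (log2 change 1.35, adjusted p = 1.49e-10), though under 2-fold in the libraries without Dox (0.99). VM-3055 cells were set apart by Lamb3, 3.51-fold higher than in MYC-2983 cells, and by lower Itgb3 and Itga5, 5.58- and 3.53-fold. Lamb3 was also lower in VIM-3039 than in VM-3055 cells with Dox (log2 change -1.33, adjusted p = 2.73e-09), though under 2-fold in the libraries without Dox (-0.58). Itga5 did not differ between VIM-3039 and MYC-2983 cells with Dox (-0.01 ± 0.05, SE), and was 3.51-fold higher in VIM-3039 than in VM-3055 cells. Itgb3 was 2.91-fold higher in VIM-3039 than in VM-3055 cells as well. Itga9 was at 11.8, 17.3, 19.03 and 17.8 units in VIM-3039 cells against 53.9, 50.2, 47.5 and 53.5 in VM-3055 and 90.6, 121, 110.0 and 109 in MYC-2983 cells, with 3 separate ranges. Lama3 was 2.66-fold higher in VIM-3039 than in MYC-2983 cells with Dox and lower without it, at a log2 change of -1.49, so that the direction of this low-level gene differed between the states. With a pseudocount of 10 the value with Dox was 0.39 and did not pass.

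Chains of the common laminins and receptors were closer between lines. With Dox, Itgb1, Itgav, Itga1, Itga6, Lama5, Lamb1 and Lamb2 differed by less than 2-fold in all 3 comparisons. The widest was -0.90 for Lamb1 between VIM-3039 and MYC-2983 cells. Without Dox, Itga1 ran from 1561 to 1874 units in VM-3055 and from 791 to 836 in VIM-3039 cells. Itga3 was 2.12-fold lower in VM-3055 than in MYC-2983 cells, under 2-fold with TMM, with quantile normalization and without Dox, and Lamc1 2.15-fold lower in VIM-3039 than in MYC-2983 cells, under 2-fold with TMM.

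The third comparison set the tumours beside normal kidney, where a lower value of a bulk sample can come from fewer cells of a type or from less RNA per cell, which cannot be told apart. In MYC tumours 8 subunits were higher and 5 lower of 37 tested (18.8% and 18.6% of all genes, 37.4% in either direction), with TMM 6 and 7, with quantile normalization 10 and 6, and without kidney replicate 5 they were 11 and 5. In VM tumours 8 were higher and 8 lower of 37 (17.3% and 22.5%, together 39.8%), and without that kidney 7 and 8. In VIM tumours 7 were higher and 9 lower of 38 (18.9% and 20.7%, together 39.6%), and without that kidney 9 and 8. The 3 comparisons share the 5 kidneys, so that their values are set side by side without a count of agreement. The subunits' shares lay near those of all genes in each. Against the kidneys labelled B6 alone 9 of 32 calls of named subunits were lost (among them Itga6, Itgav, Itgb2 and Lama4 in VIM and Itgam and Itgav in VM tumours), and against those labelled KT alone 5 of 32 (among them Lama5, Lamc1 and Lama4 in VIM tumours). Log2 changes come from means per mouse, and the levels given are those of the libraries.

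Markers of other cell types moved with these comparisons. The summed leukocyte markers were 5264 to 19198 units in MYC, 3957 to 10277 in VM and 8869.7 to 16196 in VIM tumours against 1614 to 2555 in kidney, of which 5, 3 and 5 of the 9 genes passed as higher and 0, 2 and 1 as lower. The summed endothelial markers were 199 to 1537, 267 to 2091 and 475 to 1067 against 3674 to 6287, with 6, 5 and 6 of 6 genes lower. Podocyte markers were 2118 to 3519, 1438 to 1863 and 749 to 2377 against 4128 to 11004, with 2, 3 and 3 of 4 lower, and the defining Nphs1 at 0 in the VM tumours. Proximal tubule markers were 2712 to 10199, 4772 to 6247 and 1521 to 5692 against 173885 to 212657, with 5 of 5 lower in each. Mural cell and fibroblast markers were 2727 to 10069, 2222 to 4535 and 2309 to 3975 against 2284 to 5609, with 2, 1 and 1 of 10 higher and 3, 6 and 3 lower, and megakaryocyte and platelet markers 42.4 to 100.3, 52.6 to 228 and 92.7 to 175 against 16.4 to 57.1, with 1, 2 and 1 of 4 higher. The part of these lists in the changes below was not tested.

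**Figure D5:**
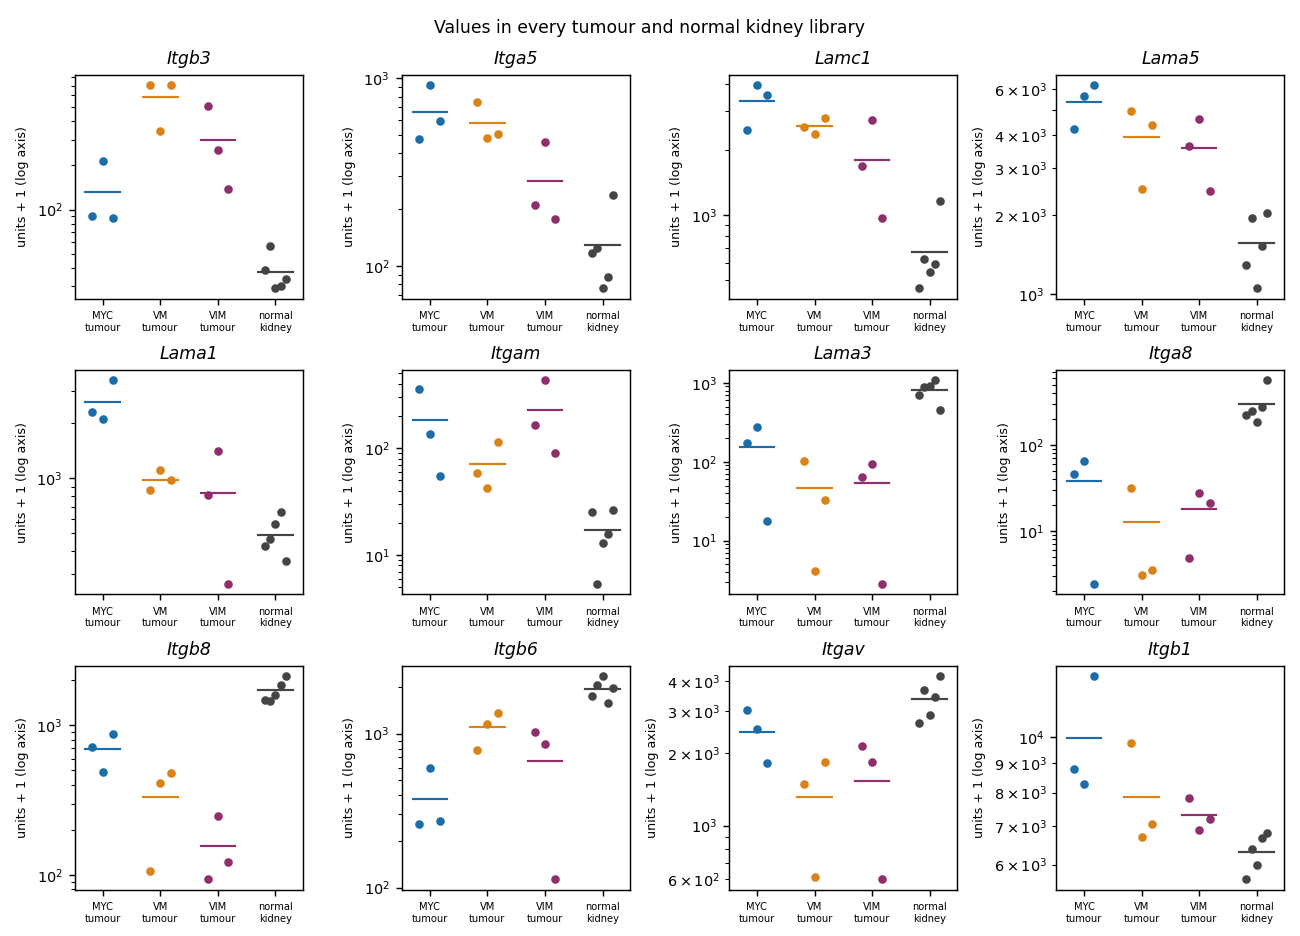
Every tumour and normal kidney library for 12 subunits, in units + 1 on log axes (points are libraries, horizontal lines means; n = 3 per tumour group and 5 kidneys). Itgb3 and Itgam lie above the kidneys in all tumour libraries, Lama3, Itga8 and Itgb8 lie below them, and Itgb1 spans a narrow range, from 6301 units on average in kidney to 9942 in MYC tumours.

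Lamc1 and Lama5 were higher in all 3 tumour groups. Lamc1 was at 457, 622, 541, 594 and 1156 units in the 5 kidneys. It was at 2469, 3985 and 3571 in MYC, 2535, 2364 and 2798 in VM and 1682, 2724 and 967 in VIM tumours. The MYC and VM tumours lay above every kidney, and 1 VIM tumour lay under kidney replicate 5. The rises were 4.78-, 4.01- and 2.57-fold (adjusted p = 0.0009, 0.000143 and 0.0106), and the last was 0.999 on the log2 scale and did not pass without VIM tumour 2. Lama5 was at 1287, 1943, 1052, 1526 and 2028 units in kidney. It was at 4235, 5620.4 and 6223 in MYC, 4955, 2504 and 4365 in VM and 3659, 4628 and 2469 in VIM tumours, all above the kidneys. It rose 3.29-, 2.49- and 2.28-fold (adjusted p = 0.0012, 0.00248 and 0.00419), in VIM tumours at 0.98 and not past 2-fold without VIM tumour 2.

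Lama1 was at 424, 464, 559.6, 649.8 and 353 units in kidney, 2309.7, 2113 and 3422 in MYC, 859, 1105 and 980.3 in VM and 808, 1407 and 264 in VIM tumours. MYC tumours stood highest, 5.19-fold above kidney (adjusted p = 0.000112). VM tumours were 2.04-fold above it (adjusted p = 0.00199), which went under 2-fold without VM tumour 2 (0.94), kidney 1 (0.98) or kidney 5 (0.92), and VIM tumours overlapped kidney and did not pass. Lamb1, their usual beta partner, was at 4176, 5684 and 4869 in MYC, 5999, 2612 and 2075 in VM and 1979, 3120.3 and 837 in VIM tumours against 1867, 2248, 2118, 2518 and 3418 in kidney, and passed in none (0.98, 0.42 and -0.46). Lamb2 was at 809.7, 949 and 716, 1622, 1044 and 1307 and 331, 583 and 354 against 694, 736, 529, 599 and 1193, also with no pass (0.18, 0.86 and -0.81).

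Lama3 and Lamb3, chains of the epithelial anchoring laminin, moved in opposite directions where both passed. Lama3 was at 702, 898, 905, 1078 and 457 units in kidney. It was at 171, 272 and 16.9 in MYC, 99.9, 3.09 and 32.1 in VM and 64.03, 93.98 and 1.84 in VIM tumours, and every tumour lay under every kidney. The falls were 7.09-, 32.5- and 29.9-fold (log2 change -2.83 ± 0.41, -5.02 ± 0.83 and -4.90 ± 0.97, SE; adjusted p = 0.000733, 0.0006 and 0.002). Their size rested on the tumours with very low values. Without MYC tumour 3 the change was -1.84 and without both libraries of its mouse -2.18, without VM tumour 2 it was -3.75 and without VIM tumour 3 -3.31. Leaving out the higher tumours deepened it, to -3.47 and -3.81 without MYC tumour 1 and 2, to -6.06 without VM tumour 1 and to -5.56 and -5.84 without VIM tumour 1 and 2. The MYC change did not pass where all tumours and kidneys were fitted together.

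Lamb3 was at 29.4, 45.3, 30.8, 43.97 and 13.9 units in kidney, 76.5, 207 and 31.1 in MYC, 78.5, 49.5 and 187 in VM and 128, 190.5 and 28.7 in VIM tumours. It passed narrowly in MYC (2.54-fold, adjusted p = 0.0493) and VM tumours (2.91-fold, adjusted p = 0.0324), and the MYC call was also lost under TMM, quantile normalization, no filter and the joint fit, the VM call under the latter 2. These calls were lost in 7 of 9 and 5 of 8 fits that left out a library or mouse. The MYC call ended without MYC tumour 1 (1.38, adjusted p = 0.117), MYC tumour 2 (0.67), mouse 2983 (1.31) or kidney 1, 2, 3 or 4 (1.34, 1.49, 1.35 and 1.48), and was 2.02 without MYC tumour 3. The VM call ended without VM tumour 1 (adjusted p = 0.0502), VM tumour 3 (1.02) or kidney 1, 3 or 5 (1.53, 1.55 and 1.27).

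Lama4 was at 62.3, 67.2, 77.6, 87.9 and 134 units in kidney, 23.3, 171 and 18.4 in MYC, 115, 13.4 and 39.5 in VM and 5.65, 41.4 and 47.7 in VIM tumours. It passed as lower in VIM tumours only (3.49-fold, adjusted p = 0.0362), and that call was lost with no filter, in the joint fit and in 5 of 8 fits that left out a library, at the least -0.88 without VIM tumour 1. The other losses were without kidney 2 (-1.88), 3 (-1.83), 4 (-1.78) or 5 (-1.63). Of other laminin genes, Lama2 and Lamc3 passed in no tumour group, with Lamc3 at 198, 363 and 538 in VIM tumours against 116, 126, 124, 161 and 392 in kidney.

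Itgb3 was higher in all 3 tumour groups and Itga5 in 2 of them. Itgb3 was at 38.1, 55.5, 28.1, 29.3 and 32.9 units in kidney. It was at 89.6, 215 and 86.2 in MYC, 708, 342 and 707 in VM and 505, 256 and 138 in VIM tumours, all above every kidney. It rose 3.04-, 15.2- and 7.15-fold (log2 change 1.60 ± 0.39, 3.92 ± 0.35 and 2.84 ± 0.44, SE; adjusted p = 0.00902, 1.31e-05 and 0.000456). The MYC call was lost without mouse 2983 (1.31, adjusted p = 0.0676). Itgb3 also pairs with the platelet chain Itga2b, which was at 82.6, 125 and 77.7 units in VM tumours and 69.2, 81.8, 88.4, 91.2 and 99.9 in kidney. Itga5 was at 116, 124, 74.97, 86.3 and 237 in kidney, 473, 924 and 590.4 in MYC, 749.7, 482 and 506 in VM and 211, 456 and 176 in VIM tumours. MYC and VM tumours lay above every kidney and rose 5.01- and 4.81-fold (adjusted p = 0.00256 and 0.000484), and the VIM tumours overlapped kidney replicate 5 (1.13, adjusted p = 0.0504).

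Other RGD receptor chains were lower. Itga8, the nephronectin receptor chain of renal mesangial and stromal cells, was at 223, 242, 183, 275 and 560.4 units in kidney, 44.8, 63.3 and 1.41 in MYC, 30.6, 2.06 and 2.47 in VM and 3.77, 26.3 and 20.2 in VIM tumours. Every tumour lay under every kidney, with falls of 11.5-, 39.5- and 19.6-fold (adjusted p = 0.00124, 0.000209 and 0.000223). MYC tumour 3, VM tumours 2 and 3 and VIM tumour 1 were at or under the 3-read limit, so the size of these falls is uncertain. The MYC value of -3.52 was -2.34 without MYC tumour 3, -4.46 without tumour 1, -4.71 without tumour 2 and -2.58 without mouse 2983. The VM value of -5.30 was -6.40 and -4.71 without VM tumour 1 and 2, and the VIM value of -4.29 was -3.51 without VIM tumour 1.

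Itgb8 was at 1467, 1464, 1596, 1871 and 2143 units in kidney, 715, 485 and 870.1 in MYC, 105, 410.3 and 479.7 in VM and 92.3, 248 and 121 in VIM tumours, with no overlap. It fell 2.48-, 6.13- and 11.9-fold (adjusted p = 0.000529, 0.000564 and 1.25e-05), and without VM tumour 1 the log2 change in VM tumours was -1.93 rather than -2.62. Itgb6 was at 1758, 2074, 2372, 1570.0 and 1975 units in kidney, 259, 599 and 268 in MYC, 778, 1152 and 1354 in VM and 1021, 856 and 112 in VIM tumours. Again no tumour reached a kidney, and it passed in MYC (5.97-fold lower, adjusted p = 5.34e-05) and VIM tumours (4.18-fold lower, adjusted p = 0.0169) but not in VM tumours (-0.86). Without VIM tumour 3 the log2 change in VIM tumours was -1.05 rather than -2.06, and the VIM call was lost against either kidney label alone and with no filter. Itgav, their alpha partner, was at 2676, 3658, 2886, 3438 and 4197 in kidney, 3025, 2526 and 1825 in MYC, 1491, 610.3 and 1832 in VM and 2149, 1846 and 597 in VIM tumours. It fell in VM (2.804-fold, adjusted p = 0.00302) and VIM tumours (2.495-fold, adjusted p = 0.0143, not passed with no filter), and the latter was -0.74, under 2-fold, without VIM tumour 3. Itgb5 also fell in VM and VIM tumours (-1.28 and -1.24), in each case under 2-fold without tumour 3 of that group (-0.94 and -0.88) and against the B6 kidneys alone.

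Of the beta 1, laminin receptor and collagen receptor chains, Itga6 in VIM and Itgb4 in VM tumours passed and the others did not. Itgb1 was at 5652, 6377, 5999, 6674 and 6805 units in kidney, 8797, 8272 and 12758 in MYC, 9771, 6693 and 7064 in VM and 7815, 6897 and 7183 in VIM tumours. Its changes of 0.60, 0.30 and 0.21 were under 2-fold. Itga3 was at 471, 704, 485, 513 and 893 in kidney, 470.1, 850.3 and 444 in MYC, 1233, 676 and 1401 in VM and 684, 1150.4 and 395 in VIM tumours, and Itga1 at 1062, 1233, 1066, 1226 and 1989, 2794, 1616 and 3125, 938, 736 and 1374 and 841, 925 and 657 in that order. Neither passed in any tumour group. Itga6 was at 1114, 1472, 1149.9, 1149.8 and 2444 in kidney, 1804, 1586 and 1275 in MYC, 442, 853 and 1038 in VM and 429, 919.8 and 279 in VIM tumours, and fell 2.91-fold in VIM tumours (adjusted p = 0.00751). Itgb4 was at 9.31, 17.5, 22.8, 21.2 and 80.96, 17.7, 142 and 31.1, 9.32, 1.03 and 3.699 and 16.9, 93.98 and 3.67 in that order, and its pass as lower in VM tumours (-2.39) ended without VM tumour 2 (-1.79, adjusted p = 0.0834). The call was also lost against the B6 kidneys alone, in the joint fit and with no filter. Itga2 was at 0, 5.84, 2.68, 4.89 and 2.53 units in kidney, 1.87, 75.6 and 4.24 in MYC, 0, 2.06 and 13.6 in VM and 0, 10.03 and 0 in VIM tumours, and passed in no tumour group.

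Leukocyte chains stood higher as a sum in tissue, at 171 to 1392 units per library, than in the lines, at 6.46 to 28.3 units. Itgam, which codes for CD11b, an alpha chain of macrophages and neutrophils, was at 24.2, 4.38, 12.05, 14.7 and 25.3 units in kidney, 356, 136 and 53.7 in MYC, 57.3, 41.2 and 113 in VM and 164, 431 and 89.95 in VIM tumours. All tumours lay above the kidneys, with rises of 11.8-, 4.41- and 12.5-fold (adjusted p = 0.00497, 0.0124 and 0.00108). The log2 change in MYC tumours (3.56) was 2.54 without MYC tumour 1 and 4.59 without mouse 2983, that in VM tumours (2.14) was 1.74 and did not pass without VM tumour 3 (adjusted p = 0.056), and that in VIM tumours (3.65) was 3.04 without VIM tumour 2. Its partner Itgb2 was at 84.8, 59.9, 107, 104 and 125 in kidney, 543, 184 and 93.2 in MYC, 154, 108 and 116 in VM and 450.1, 610.3 and 127 in VIM tumours. It passed in MYC (2.84-fold higher, adjusted p = 0.0417) and VIM tumours (log2 change 1.80, adjusted p = 0.0109), and the VIM value was 1.57 with adjusted p = 0.0544 without VIM tumour 1 and 2.48 without VIM tumour 3. The MYC log2 change was 0.48 (adjusted p = 0.398) without MYC tumour 1 and 2.53 without mouse 2983, and that call was also lost without MYC tumour 2 or kidney 1, 2, 3 or 4, with TMM, with no filter, in the joint fit, against either kidney label alone and with libraries taken as separate. The macrophage marker Emr1 averaged 377, 127 and 274 units in MYC, VM and VIM tumours and 76.6 in kidney. Itgad was at 64.03, 10.03 and 0 in VIM tumours and 0 in every other library of the series.

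Of the lymphocyte chains, Itgae and Itgb7, whose product holds T cells in epithelium, each passed as lower in 2 tumour groups. Itgae averaged 6.05 and 2.91 units in MYC and VM tumours against 26.5 in kidney (-2.07, not passed against the B6 kidneys alone, and -2.90), and did not pass in VIM tumours, which overlapped kidney (mean 15.8, -1.07). Itgb7 averaged 4.89 and 4.57 in VM and VIM tumours against 38.4 (-2.90 and -2.75), and did not pass in MYC tumours, which also overlapped kidney (mean 15.6, -1.31). Itgal averaged 66.7, 24.8 and 30.2 units in MYC, VM and VIM tumours against 27.4 in kidney and passed in none (1.53, 0.02 and 0.28). Of the partner genes, 6, 6 and 3 of 13 basement membrane genes passed as higher and 3, 4 and 5 as lower in MYC, VM and VIM tumours, and 3, 1 and 1 of 20 adaptor and focal adhesion genes as higher and 2, 5 and 5 as lower. Over all genes 18.8%, 17.3% and 18.9% passed as higher and 18.6%, 22.5% and 20.7% as lower, so that the adaptor counts lay near or under the shares of all genes. The perlecan gene Hspg2 averaged 4512, 5226 and 2247 units against 861 in kidney, while the glomerular collagen chain Col4a3 averaged 162, 114 and 109 against 6696.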

How the data were processed

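RNA was sequenced from 24 cell line libraries, 9 tumours and 5 normal kidneys with a stranded, paired-end mRNA kit; the strand setting of the counting is not given in the sources used here. Per the study's methods and the submitters' processing notes, the authors aligned reads to mm9 with MapSplice, handled them with Picard 1.64 and SAMtools, estimated counts with RSEM and brought the upper quartile of every library to 1000. The deposited values are therefore a scaled signal and not counts, and no count model was run. Low values were whole multiples of 1 read for 94.1% to 95.9% of values per library (within 0.02 of a whole number), which gave the read totals and the limit of 3 reads; these limits cover counting error only.

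Tests were made with limma 3.58.1 (run under R 4.3.3) after taking log2(value + 1), using a mean-variance trend and Benjamini-Hochberg adjustment over all genes tested. A fold change is on that scale and understates the change of low genes. Genes above 0 in at least 4 cell libraries, or 2 animals, were tested, and a gene passed at an adjusted p under 0.05 and over 2-fold. Each Dox comparison, pair of lines and tumour comparison was fitted on its own groups, and differences in Dox response as an interaction. Libraries of 1 mouse were averaged. The TMM alternative was written for this work with trims of 30% and 5%. Scripts were tested on simulated data. Tables were handled in Python 3.11.15 with pandas 2.3.3, and figures drawn with matplotlib 3.10.9. Exon lengths and positions came from an NCBIM37 annotation, which placed all 39 genes, and promoters from RefSeq.

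Named with values in every sample were 16 chains whatever they did (Itgb1, Itgav, Itga1, Itga2, Itga3, Itga5, Itga6, Itgb4, Lama1, Lama3, Lama4, Lama5, Lamb1, Lamb2, Lamb3 and Lamc1), and in each comparison the 3 subunits with the largest rise and the 3 with the largest fall that passed, had a mean of 50 units or more in whichever group was higher, and did not overlap. Some genes are counted but not reported here. The members and the lists were chosen with earlier results of these data known. Alternatives were other pseudocounts, filters, scalings, joint fits, kidney labels and leaving out each library.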

Additional observations from a re-analysis of the deposited data

Results flagged for a closer look

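The check over 25 named subunits left out the tumour groups, with 3 libraries each, and groups with any library at or under the limit of detection. Single libraries stood apart from the rest of their group in 14 of 150 groups checked, where chance flags about 1 in 20 groups. Of these, 5 were normal kidney replicate 5, among 23 kidney groups checked. That library was highest for Itga1 (1989 units), Itga6 (2444), Itga8 (560.4), Itgb4 (80.96) and Lamc1 (1156). In VIM-3039 cells without Dox, replicate 4 stood apart for Itga2 (16.59 units) and Itga3 (14210.0 units), and replicate 3 for Itgb3 (1028 units). In VM-3055 cells, Dox replicate 1 stood apart for Itgb1 (12740.0 units), no Dox replicate 2 for Itgb6 (2307) and no Dox replicate 1 for Lama5 (6410.0). In MYC-2983 cells without Dox, replicate 4 stood apart for Itgb4 (57.13) and replicate 2 for Lamb2 (1558), and in VIM-3039 cells with Dox, replicate 4 for Lamc1 (2109).

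Named subunits whose change with Dox differed between lines by the interaction test were Itga4 (1.40 on the log2 scale), Lama1 (-1.01) and Lama4 (1.69) for VM-3055 minus MYC-2983 cells. They were Itga5 (-1.13), Itga9 (-1.34), Itgb4 (2.15), Lama3 (2.91) and Lama4 (1.30) for VIM-3039 minus MYC-2983 cells, and Itga5 (-1.44), Itgb4 (1.94) and Lama3 (3.76) for VIM-3039 minus VM-3055 cells. Lama4 was at or under the limit of detection in both other lines.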

How the results depend on the processing

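With a pseudocount of 10 or a mean of at least 10 units, 8 subunits passed between VIM-3039 and MYC-2983 cells with Dox, against 13. Against the kidneys labelled B6 only, 9 passed in VIM tumours and against those labelled KT only 10, against 16. For the interaction of VM-3055 with MYC-2983 cells, 7 became 4 with a pseudocount of 0.1, 3 with one of 10, 3 with a mean of at least 10 units, 3 with no filter and 4 with quantile normalization. For VIM-3039 with MYC-2983, 8 became 3 with a pseudocount of 10 and 4 with the mean filter, and for VIM-3039 with VM-3055, 7 became 4 and 3. The cause was not tested.

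Leaving out 1 library or mouse gave 16 to 18, 19 to 22 and 15 to 18 subunits for Dox in MYC-2983, VM-3055 and the VIM-3039 line. It gave 11 to 14, 10 to 12 and 11 to 12 for VM-3055 with MYC-2983, VIM-3039 with MYC-2983 and VIM-3039 with VM-3055, 11 to 17, 15 to 17 and 13 to 21 for MYC, VM and VIM tumours, and 4 to 8, 7 to 9 and 6 to 8 for the 3 interactions. Of single subunits named by rule, 264 of 264 such Dox and 176 of 176 line results kept direction and side of the threshold. By contrast, 26 of 265 tumour and 7 of 176 interaction results lost the call. Of the other subunits that passed, 6 of 144 Dox, 11 of 112 line, 14 of 90 tumour and 31 of 176 interaction results lost it. Lama3 reversed between VIM-3039 and MYC-2983 cells, at -1.49 in the libraries without Dox.

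Replicate numbers of VM-3055 and VIM-3039 libraries were checked for pairing: deviations of same-numbered libraries correlated between -0.31 and -0.05 in the VM-3055 line and between -0.06 and 0.11 in VIM-3039 cells (4 pairs each), with 0 and 1 of 4 libraries closest to their own number. No pairing was seen, but a check on 4 pairs cannot show that there was none. With the replicate block, 20 subunits passed in the VM-3055 line and 17 in VIM-3039 cells, 11 between those lines with Dox and 6 in their interaction, against 20, 16, 11 and 7. Precision in tissue rests on 3 tumours a group and 8.22 M reads at the least, and genes at the limit of detection weigh in the counts.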
